A study of Mus musculus with 12 samples.

Results

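This report follows 6 genes through which astrocytes clear, convert and sense glutamate: the carriers *Slc1a2* and *Slc1a3*, the enzyme gene *Glul*, the glutamine carrier *Slc38a3* and the metabotropic receptors *Grm3* and *Grm5*. They were chosen by name, with earlier results of these data known, so counts over them are descriptions, and are 6 of the 31053 genes in the deposited count table. Their RNA was counted in single cells of mouse striatum enriched for astrocytes with magnetic beads against the surface antigen ACSA2. The wild type animals of the 3m group were 3 months old, and those of the postnatal group were a few days old. The strain label reads mixed for both groups, and the study's methods name male C57BL/6Jax mice and say that several animals were pooled for each preparation and that the subventricular zone was cut away. The labels name no transgene and no treatment. Each group held 2 libraries, sequenced in 2 or 4 runs that the table merges. The title and the age tag of both postnatal libraries disagree (day 7 in the title and day 3 in the tag for replicate 1, the reverse for replicate 2), while the study's text speaks of day 3, so they were kept as one group and days 3 and 7 were not compared.

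At excitatory synapses glutamate is removed mainly by 2 sodium-coupled carriers of astrocytes, GLT-1 (*Slc1a2*) and GLAST (*Slc1a3*). Inside the astrocyte glutamine synthetase (*Glul*) joins ammonia to glutamate, and the glutamine leaves through carriers such as SNAT3 (*Slc38a3*) to be turned back into transmitter by neurons. Astrocytes also sense glutamate through the G protein-coupled receptors mGluR3 (*Grm3*), which inhibits adenylyl cyclase, and mGluR5 (*Grm5*), which acts through Gq and phospholipase C to release calcium and is known as a receptor of young astrocytes.

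After removal of cells with 500 or fewer detected genes or with 10% or more mitochondrial counts, 3163 of 4245 cell barcodes remained, from 555 to 1120 per library, with median totals of 7738 to 11640 UMIs (unique molecular identifiers, each standing for 1 captured RNA molecule). Cells were put into 5 classes by fixed marker lists that contain none of the 6 genes: astroglia-like (378 and 549 cells in the postnatal and 305 and 301 in the 3m libraries, replicates 1 and 2), oligodendrocyte-like (8, 0, 581 and 304), precursor-like (67, 6, 45 and 7), endothelial-like (15, 10, 45 and 36) and mural-like (24, 35, 59 and 50). All 10 astroglia markers were detected in each astroglia sum, where their summed level was 6721 and 4011 CPM (UMIs of a gene scaled to a total of 1000000) in the postnatal and 20527 and 20058 CPM in the 3m libraries. Oligodendrocyte markers summed to 260 and 127 CPM in postnatal and 766 and 496 CPM in 3m astroglia, and their part in the results below was not tested, other than by leaving out cells with such counts. That left 93 and 171 postnatal and 48 and 34 3m cells, since 75.4% and 68.9% of postnatal and 84.3% and 88.7% of 3m astroglia held a UMI of such a marker, and it changed no call of the 6 genes between the ages. The barcodes of postnatal replicate 2 and 3m replicate 2 coincided in 95 cases, against at most 2 for any other pair. Astroglia of postnatal replicate 2 numbered 488 without these cells and then stood at 1234 CPM for *Slc1a2*, 1907 for *Slc1a3*, 831 for *Glul*, 90.3 for *Slc38a3*, 141 for *Grm3* and 145 for *Grm5*. Leaving such cells out changed no call of the 6 genes between the ages. Its endothelial sum fell from 10 to 6 cells and from 665083 to 40641 UMIs, so endothelial results that rest on this sum are given with and without these cells. The other values include them. The classes are named below without the ending, and levels are CPM of the UMIs summed over the cells of 1 class in 1 library. Fewer cells with a transcript and less transcript per cell cannot be told apart in such sums, so shares of cells are given beside them.

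The 6 genes lie on 6 chromosomes (mm10, GENCODE M21): *Glul* at chr1:153899944-153909723 (plus strand), *Slc1a2* at chr2:102658659-102790784 (plus), *Grm3* at chr5:9485541-9725170 (minus), *Grm5* at chr7:87584168-88134907 (plus), *Slc38a3* at chr9:107650634-107669530 (minus) and *Slc1a3* at chr15:8634124-8710764 (minus). Exons of *Slc1a2* overlap the antisense gene *Gm13872*, and exons of *Glul* overlap *Teddm2* on the other strand and *Mir8114*; whether the counting used strand is not given in the sources used here, so reads of these overlaps cannot be told apart. RefSeq start-site windows (GRCm38.p6) matched 4 of the 6 genes. The 250 bases before the start are shown for *Glul* and *Grm3*, which rose together between the ages, and for *Slc1a3*, which did not pass the test. Capitals mark half-sites of the nuclear factor I family (TTGGC or GCCAA) and GC boxes (GGGCGG or CCGCCC), searched on both strands together with a core motif of SOX factors (ACAAAG or CTTTGT).
Glul, chr1:153899679-153899928, plus strand: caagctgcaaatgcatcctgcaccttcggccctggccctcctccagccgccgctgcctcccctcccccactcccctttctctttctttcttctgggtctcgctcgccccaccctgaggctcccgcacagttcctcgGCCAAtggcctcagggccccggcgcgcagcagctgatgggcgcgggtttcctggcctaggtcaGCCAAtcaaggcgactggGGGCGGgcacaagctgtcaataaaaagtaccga
Grm3, chr5:9725353-9725602, minus strand: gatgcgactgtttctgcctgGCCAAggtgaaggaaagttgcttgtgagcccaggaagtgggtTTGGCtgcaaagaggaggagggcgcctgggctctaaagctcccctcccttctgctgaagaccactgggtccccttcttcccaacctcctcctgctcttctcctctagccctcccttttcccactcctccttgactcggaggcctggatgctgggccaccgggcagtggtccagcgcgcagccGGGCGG
Slc1a3, chr15:8710808-8711057, minus strand: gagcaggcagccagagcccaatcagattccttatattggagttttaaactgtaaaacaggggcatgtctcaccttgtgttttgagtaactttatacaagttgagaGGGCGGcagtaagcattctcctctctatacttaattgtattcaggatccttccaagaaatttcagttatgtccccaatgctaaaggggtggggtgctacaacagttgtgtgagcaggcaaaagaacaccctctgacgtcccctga
*Glul* and *Grm3* each held 2 nuclear factor I half-sites and 1 GC box, and *Slc1a3* held no half-site and 1 GC box. The *Slc1a2* window, which lies inside the annotated gene, held 1 half-site and no GC box. No window held the SOX core. Across all 32851 RefSeq windows of this length 41.5% held the half-site, 32.7% the GC box and 16.5% the SOX core, so these matches are common and are given as a description.

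The first question was how the 6 genes differed between postnatal and 3m astroglia. *Slc1a2*, *Glul*, *Slc38a3* and *Grm3* were higher at 3m, *Grm5* was lower, and *Slc1a3*, whose postnatal libraries stood far apart, did not pass the test. Thus 5 of 6 genes were called (edgeR quasi-likelihood test, adjusted p of at most 0.05 and a change of at least 1 on the log2 scale), 4 higher and 1 lower, where 27.2% of the 11734 genes tested were called, 14.7% higher and 12.5% lower (1720 and 1471 genes). *Grm5* passed the count filter only through its postnatal level, so it could be called only lower. With no scaling factor the median gene moved by -0.29 and the split became 1231 higher and 2267 lower, with the same 5 calls among the 6 genes. The rises rested on both 3m libraries: without either of them *Slc1a2*, *Glul* and *Slc38a3* kept log2 fold changes of 1.56 to 2.05 but missed the threshold (edgeR adjusted p = 0.0797 to 0.109), as did *Grm3* without 3m replicate 2 (1.37, edgeR adjusted p = 0.0671).

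**Figure D1:**
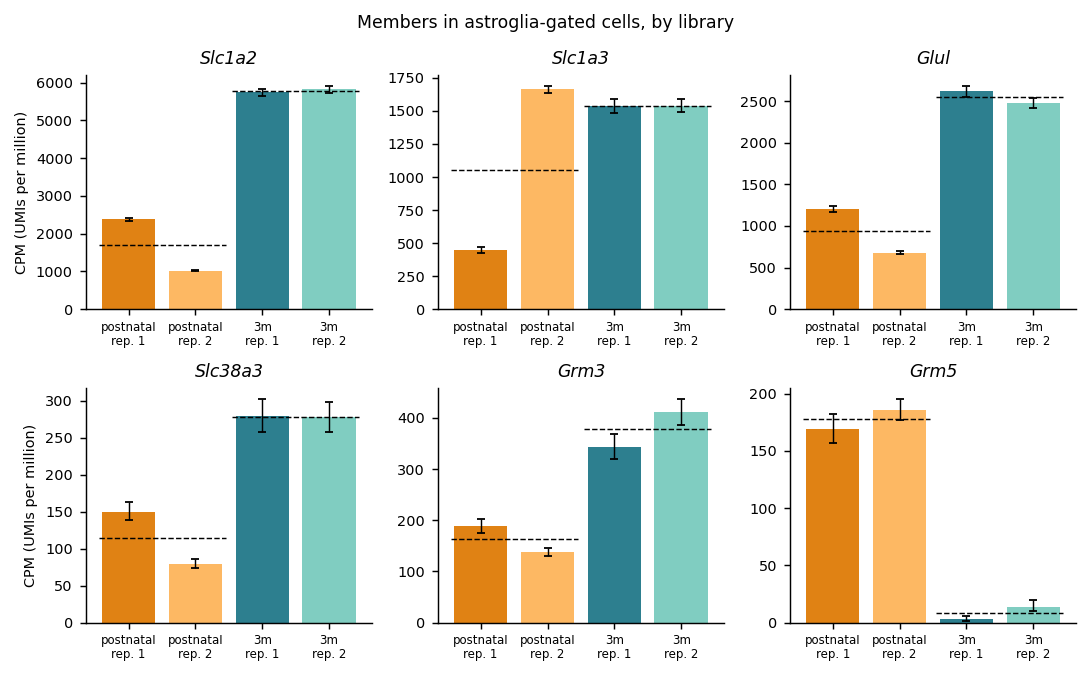
Levels of the 6 genes in astroglia of each library, in CPM (bars, with 95% Poisson intervals that cover counting error only), and the mean of each group (dashed lines). Both 3m libraries lie above both postnatal libraries for *Slc1a2*, *Glul*, *Slc38a3* and *Grm3* and below both for *Grm5*, while *Slc1a3* is low in postnatal replicate 1 alone.

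*Slc1a2* stood at 2377 and 1024 CPM in postnatal replicates 1 and 2 and at 5738 and 5821 CPM in the 3m replicates. The postnatal values differed from each other by more than the 3m values did, but the groups did not overlap. The fitted rise was 2.04 on the log2 scale (SE 0.46, edgeR adjusted p = 0.0148), 1.97 without shared barcodes and 2.78 without postnatal replicate 1. In cells thinned to 2000 UMIs, so that depth was equal, 88.9% and 72.1% of postnatal and 99.6% and 99.2% of 3m astroglia held a *Slc1a2* UMI. Thus most cells of both ages held this transcript, and the median thinned cell carried 3 and 2 UMIs in the postnatal and 11 and 10 UMIs in the 3m libraries.

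*Glul*, which encodes glutamine synthetase, stood at 1203 and 678 CPM in the postnatal and at 2617 and 2480 CPM in the 3m libraries. The rise was 1.72 (SE 0.35, edgeR adjusted p = 0.0102). Most cells of both ages were positive here too, with 84.4% and 77.3% of thinned postnatal cells and 95.3% and 93.1% of thinned 3m cells positive. The glutamine carrier *Slc38a3* rose by 1.57 (SE 0.31, edgeR adjusted p = 0.00999), from 150 and 79.4 CPM to 280 and 278 CPM. Here the share of thinned cells with a UMI was 24.8% and 13.7% in the postnatal and 39.6% and 38.2% in the 3m libraries. In each of these genes postnatal replicate 1 was the higher of the postnatal pair, as it was for *Slc1a2*.

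*Grm3* rose by 1.50 (SE 0.23, edgeR adjusted p = 0.00446), from 189 and 137 CPM to 344 and 411 CPM. *Grm5* moved the other way, from 169 and 186 CPM in the postnatal to 2.67 and 14.0 CPM in the 3m libraries, which the fit put at -4.08 (log2, SE 0.48, edgeR adjusted p = 0.00202). Its postnatal values lay close together, whereas the 3m values rested on 6 and 36 UMIs. The gene thus passed the count filter through its postnatal libraries, and its call could only be a fall. The fall was called with any 1 library left out, but its size depended on the 3m library kept: with 3m replicate 1 left out it was -3.37, and with 3m replicate 2 left out -5.74. In thinned cells it was -3.00. Thinned to equal depth, 22.2% and 16.2% of postnatal astroglia held a *Grm5* UMI, against 0 of 275 cells in 3m replicate 1, which allows a share of up to 1.09%, and 5.02% of 259 cells in 3m replicate 2. Unthinned, the shares were 45.2% and 36.1% at median depths of 9265 and 12254 UMIs, and 1.97% and 7.97% at 6027 and 8394 UMIs. In oligodendrocytes of the 3m libraries, which are not known for this receptor, 0.861% and 1.32% of cells held one at median depths of 9062 and 13153 UMIs. The level in 3m replicate 1 astroglia, 2.67 CPM (95% Poisson interval 0.981 to 5.82), was thus that of the oligodendrocytes of the same library, 2.57 CPM (1.44 to 4.23), and was not detectable above it at this depth. In 3m replicate 2 the astroglia level of 14.0 CPM (9.82 to 19.4) was above the 1.15 CPM (0.373 to 2.68) of its oligodendrocytes. The ratio of *Grm3* to *Grm5* UMIs, which compares libraries and not the genes, was 1.12 and 0.737 in the postnatal and 129 and 29.3 in the 3m libraries.

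Over the 4 libraries an exact two-sided permutation test of the thinned shares cannot go below p = 0.333, so these shares are descriptions. The CPM ranges of the ages did not overlap for 5 of the 6 genes, but this was so for 76.9% of all genes tested.

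*Slc1a3* was the exception. It stood at 448 CPM in postnatal replicate 1 and at 1663 CPM in postnatal replicate 2, while both 3m libraries stood near the latter, at 1537 and 1539 CPM. The fitted change of 0.85 (SE 0.54, edgeR adjusted p = 0.248) did not pass. It rose to 2.02 (SE 0.17) and was called without postnatal replicate 2, and was 0.17 (SE 0.16) without postnatal replicate 1. The animals are labelled wild type, and their genotype was not checked here. The low value came with fewer positive cells: 31.4% of thinned astroglia in postnatal replicate 1 held a *Slc1a3* UMI, against 88.9%, 90.2% and 91.1% in the other libraries. *Slc1a2* did not share this pattern, so that the count of *Slc1a2* UMIs per *Slc1a3* UMI was 5.30 in postnatal replicate 1, 0.616 in postnatal replicate 2, and 3.73 and 3.78 at 3m.

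The difference was also present among deeply sequenced cells. Among astroglia with at least 10000 UMIs, a limit chosen after seeing the data, 69 of 178 cells of postnatal replicate 1 held no *Slc1a3* UMI (38.8%, exact 95% interval 31.6% to 46.3%). No such cell was seen among 363 in postnatal replicate 2, which allows a share of up to 0.826%, nor among 68 and 109 in the 3m libraries. A further 50 cells of postnatal replicate 1 held 1 to 3 UMIs, 11 held 4 to 9 and 48 held 10 or more, so that few cells lay between a low and a high range. In the other libraries 93.9%, 88.2% and 95.4% of such cells held 10 or more. Without shared barcodes 68 of 177 cells of postnatal replicate 1 held none.

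**Figure D2:**
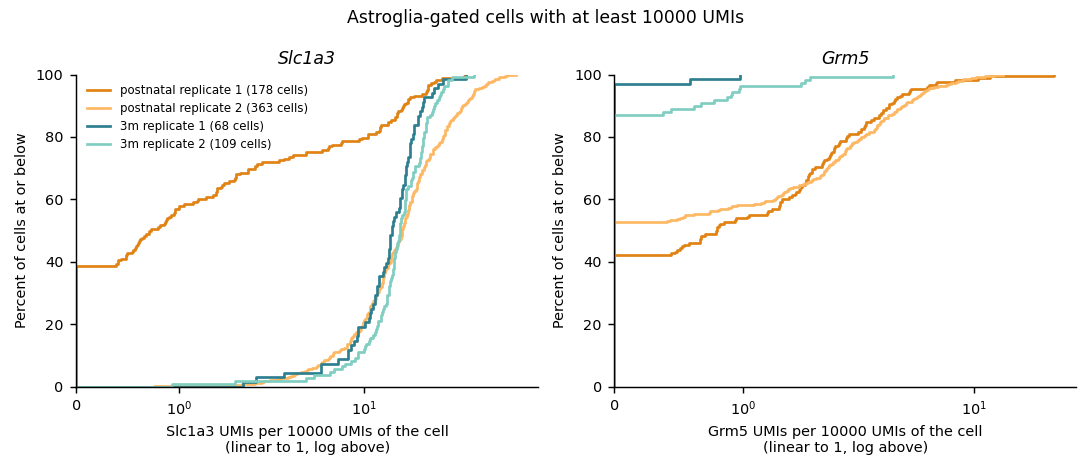
Cumulative share of deeply sequenced astroglia (vertical axis, percent of cells) against the UMIs of *Slc1a3* (left) and *Grm5* (right) per 10000 UMIs of the cell (linear to 1, log above), by library. The *Slc1a3* curve of postnatal replicate 1 starts at 38.8% of cells with none, while the other libraries start at 0, and 42.1% and 52.6% of postnatal but 97.1% and 87.2% of 3m cells hold no *Grm5*.

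The cells of postnatal replicate 1 with few *Slc1a3* UMIs also held less of 4 of the other genes. The 119 deep cells with 3 or fewer held *Slc1a2* at 1844 CPM and *Glul* at 1203 CPM. The 48 with 10 or more held *Slc1a2* at 3258 CPM and *Glul* at 1076 CPM. *Slc1a2* was thus lower in the cells with few, as were *Slc38a3* (115 against 230 CPM), *Grm3* (155 against 252 CPM) and *Grm5* (116 against 307 CPM). These are cells of 1 library, so the values are a description with no test.

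The levels of both receptors differed between clusters of postnatal astroglia. Clusters of all cells were built with the 6 genes left out and are given by number and leading genes, since no astroglia marker was among the 10 genes that led the postnatal clusters. Gated 3m astroglia lay almost wholly in cluster 1, led by *Ntsr2*, *Gjb6* and *Clu* (292 of 305 and 294 of 301 cells). Postnatal astroglia lay mainly in cluster 2, led by *Sfrp1*, *Cntnap2* and *Ptx3* (88 and 287 cells), cluster 3, led by *Grm5* itself, *Ncan* and *Gfap* (158 and 151 cells), cluster 4 (109 and 54 cells, with median totals of only 1895 and 1640 UMIs) and cluster 8, led by cell cycle genes (21 and 55 cells). Being clusters of the same cells, they allow a description and no test.

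In cluster 2 *Grm5* stood at 10.3 and 3.89 CPM in postnatal replicates 1 and 2, and in cluster 3 at 256 and 373 CPM. It was detected in 6.82% and 2.79% of the cells of cluster 2 and in 79.1% and 95.4% of those of cluster 3, at median depths of 11366 and 11088 UMIs against 12728 and 17830 UMIs. *Grm3* had the same order, at 42.0 and 32.6 CPM in cluster 2 and 255 and 287 CPM in cluster 3, and was detected in 34.1% and 24.0% of the cells of cluster 2 and in 82.9% and 93.4% of those of cluster 3. Clusters 4 and 8 held *Grm5* at 117 to 221 CPM and *Grm3* at 45.2 to 279 CPM. Of these 4 clusters *Grm5* was lowest in cluster 2 in both libraries, as was *Grm3* in postnatal replicate 1. In postnatal replicate 2 cluster 4 held only 5 *Grm3* UMIs, in 5.56% of its cells, and so cannot be ordered against cluster 2. *Grm3* was not absent from cluster 2. Against cluster 3, cluster 2 also held less *Slc38a3* (52.3 and 53.2 against 207 and 139 CPM) and less *Slc1a2* (1521 and 924 against 2790 and 1667 CPM). *Glul* had no common direction (1141 and 898 against 1296 and 731 CPM).

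The receptors were also found in the same cells. Among thinned cells of postnatal replicate 2, 42.2% of the 90 cells with a *Grm3* UMI held *Grm5*, against 10.7% of the 422 without, and in postnatal replicate 1 these shares were 30.5% of 95 and 18.6% of 220. In 3m replicate 2 the shares were 3.05% of 131 and 7.03% of 128, and in 3m replicate 1 no thinned cell held *Grm5*.

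In postnatal replicate 1 *Slc1a3* was low in more than 1 cluster. It stood at 53.2 CPM in cluster 2 and 648 CPM in cluster 3, against 1514 and 2433 CPM in the same clusters of postnatal replicate 2. In cluster 2 of postnatal replicate 1 only 23.9% of cells held it, against 100% in postnatal replicate 2. In the cycling cluster 8 the levels were 254 and 843 CPM, and in the shallow cluster 4 they were 604 and 695 CPM. The levels of the libraries thus lay close together in cluster 4 alone among these 4 clusters. Its share of cells with *Slc1a3* was still 41.3% in postnatal replicate 1 against 63.0% in postnatal replicate 2, whose level there rests on 77 UMIs.

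The size of the age differences depended on which postnatal cells were set against the 3m astroglia. These values follow from the cluster levels above and are a description with no test. Against cluster 3 alone the log2 fold change at 3m was 0.69 for *Grm3*, 0.90 for *Slc38a3* and -4.96 for *Grm5*. Against cluster 2 alone it was 3.76 for *Grm3*, 2.77 for *Slc38a3* and 0.91 for *Grm5*. *Slc1a2* and *Glul* stood higher at 3m than in either cluster, by 1.59 and 1.54 against cluster 3 and by 2.61 and 1.69 against cluster 2.

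Cycling cells held less of the carriers and the enzyme. In postnatal replicate 2 *Slc1a2* stood at 281 CPM in 34 cycling and at 1191 CPM in 478 other astroglia of at least 2000 UMIs, *Glul* at 218 and 779 CPM, and *Slc1a3* at 833 and 1850 CPM. In postnatal replicate 1 the 17 cycling cells stood at 1530 against 2424 CPM for *Slc1a2* and at 585 against 1248 CPM for *Glul*. *Grm5* had no common direction, at 240 against 175 CPM in replicate 2 and 94.2 against 176 CPM in replicate 1. Leaving cycling cells out changed no call of the 6 genes between the ages.

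Among 61 further genes of the pathway, listed by role, 43 passed the count filter in astroglia, of which 11 were called higher and 7 lower at 3m (41.9%, against 27.2% of all genes). *Atp1b2*, which encodes a subunit of the sodium pump that maintains the gradient driving glutamate uptake, rose by 2.28 (SE 0.41), from 475 and 209 CPM to 1281 and 1465 CPM. Both other glutamine carriers that were tested fell, *Slc38a2* by 3.50 (SE 0.46), from 144 and 148 CPM to 17.4 and 4.28 CPM, and *Slc38a1* by 1.74 (SE 0.40). Thus *Slc38a3* was the glutamine carrier that rose among the 3 tested.

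Of 11 tested enzymes and mitochondrial carriers, 1 rose and 2 fell. The alanine transaminase gene *Gpt* rose by 3.20 (SE 0.48), from 8.57 and 2.75 CPM to 39.2 and 38.6 CPM, *Aldh18a1*, which acts in proline synthesis from glutamate, fell by 3.15 (SE 0.49), and the pyruvate carboxylase gene *Pcx* fell by 1.06 (SE 0.26). The fall of *Aldh18a1* was from 10.6 and 16.6 CPM to 0.89 and 1.56 CPM. It passed the count filter only through its postnatal level, so it could be called only lower. *Gpt* passed only through its 3m level, so it could be called only higher. None of the 3 other SLC1 and cystine carriers tested was called. Of 12 coupling proteins 3 rose and 1 fell, and those with the largest changes were *Plcb1*, a phospholipase C isoform downstream of Gq (2.48, SE 0.21), the G protein subunit gene *Gnao1* (1.52, SE 0.19) and *Gnai1* (log2 fold change -1.23, SE 0.24). *Plcb1* rose from 13.1 and 12.3 CPM to 51.2 and 64.7 CPM while *Grm5* fell.

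None of the 6 other metabotropic receptors reached the filter in astroglia. Of 11 ionotropic subunits tested, 5 rose and 1 fell. *Grin2c*, an NMDA receptor subunit, rose by 4.69 (SE 0.37), from 12.6 and 5.61 CPM to 168 and 196 CPM, *Grin2b* rose by 2.36 (SE 0.21), and the AMPA receptor subunit *Gria3* fell by 2.53 (SE 0.42), from 10.3 and 13.1 CPM to 1.34 and 1.95 CPM. *Gria3* passed the count filter only through its postnatal level, so it could be called only lower. The adjusted p of every pathway gene named here was at most 0.0186 (edgeR).

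The second question was where the 6 genes lay among the classes of cells. Each class was set against astroglia of the same libraries with the library as a block. Of all genes 25.1% were called lower and 18.3% higher in oligodendrocytes, 8.93% and 7.99% in precursors, 22.5% and 16.2% in endothelial cells, and 16.3% and 12.7% in mural cells. Several of the 6 genes passed the count filter only through their level in astroglia and so had to come out lower: *Grm3* in precursors, *Slc1a2*, *Slc1a3*, *Grm3* and *Grm5* in endothelial cells, and *Slc1a3*, *Slc38a3* and *Grm5* in mural cells. For these only the levels are given, and no count of calls over the 6 genes is read against the shares above. *Grm5* in oligodendrocytes was under the filter in both classes. Among the genes that passed within the class, *Glul* in oligodendrocytes, *Grm5* in precursors and *Slc38a3* in endothelial cells were not called, and the others were called lower. Without the library block the calls of *Slc1a2*, *Slc1a3* (-4.22) and *Slc38a3* (-2.22) in precursors and of *Glul* in endothelial cells (-1.92) were lost (edgeR adjusted p = 0.0524 to 0.128).

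**Figure D3:**
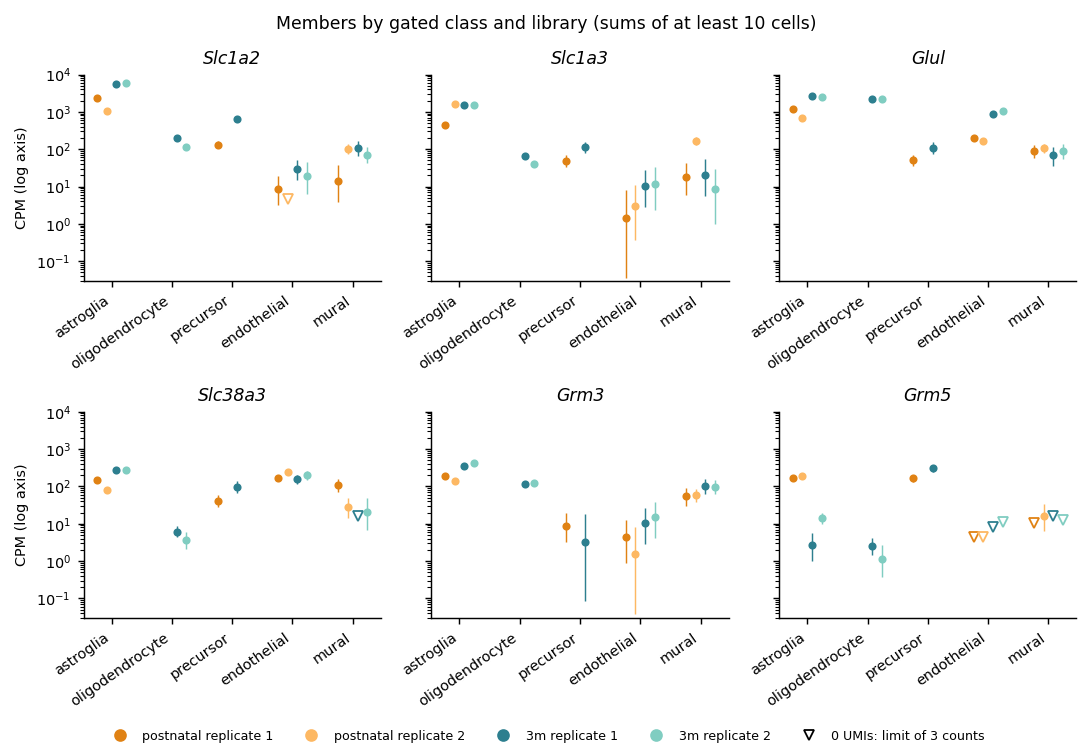
Level of the 6 genes in each class and library with at least 10 cells, in CPM on a log axis, with 95% Poisson intervals (counting error only). Open triangles mark sums with 0 UMIs, drawn at the level that 3 UMIs would give. *Glul* of 3m oligodendrocytes lies at 2172 and 2215 CPM, close to 3m astroglia, *Slc38a3* of endothelial cells lies between 156 and 242 CPM, and *Grm5* is at 0 in all 4 endothelial sums.

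**Figure D4:**
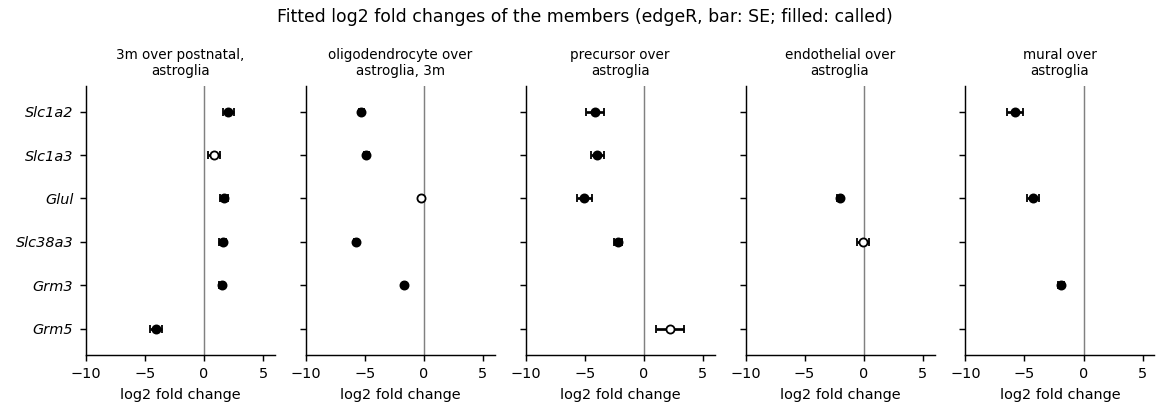
Fitted log2 fold changes with SE (bars) for the age comparison in astroglia and for each class against astroglia; filled points are called and open points are not. Genes under the count filter in the class alone are left out. The open points are *Slc1a3* by age, *Glul* in oligodendrocytes, *Grm5* in precursors and *Slc38a3* in endothelial cells.

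Both carriers were lower than in astroglia in oligodendrocytes and precursors, and *Slc1a2* in mural cells as well. *Slc1a2* stood at 195 and 112 CPM in 3m oligodendrocytes (log2 fold change -5.29, SE 0.24, edgeR adjusted p = 5.10e-08) and at 0 to 29.2 CPM in endothelial cells. *Slc1a3* stood at 67.4 and 39.5 CPM in 3m oligodendrocytes (-4.88, SE 0.21, edgeR adjusted p = 4.06e-08) and at 1.43 to 11.4 CPM in endothelial cells, where the 6 cells of postnatal replicate 2 without shared barcodes held neither. Precursors held more *Slc1a2* than the other classes outside astroglia: 131 CPM in postnatal replicate 1 and 659 CPM in 3m replicate 1, the libraries with at least 10 precursors (-4.12, SE 0.77, edgeR adjusted p = 0.0041, and -3.95 without the library block). In 3m replicate 1 thinned to equal depth, 69.8% of 43 precursors held a *Slc1a2* UMI, against 14.3% of 572 oligodendrocytes and 4.88% of 41 endothelial cells. The precursor share at 3m was thus above the share of classes not known for this carrier.

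*Glul* was the gene that oligodendrocytes shared. It stood at 2172 and 2215 CPM in 3m oligodendrocytes, against 2617 and 2480 CPM in 3m astroglia of the same libraries, a difference of -0.22 (SE 0.14, edgeR adjusted p = 0.190). In thinned cells 94.6% and 94.9% of oligodendrocytes and 95.3% and 93.1% of astroglia were positive. Precursors stood far lower, at 49.9 and 110 CPM in the 2 tested libraries (log2 fold change -5.05, SE 0.65, edgeR adjusted p = 4.61e-04); they belong to the lineage that forms oligodendrocytes. Endothelial cells held 202 and 165 CPM in the postnatal and 859 and 1036 CPM in the 3m libraries, and without shared barcodes postnatal replicate 2 held 369 CPM (15 UMIs in 6 cells). An age fit within the endothelial class, added after these levels were seen, gave a rise of 2.19 (SE 0.21, edgeR adjusted p = 2.29e-06), or 1.92 without shared barcodes (SE 0.32, edgeR adjusted p = 1.48e-07), and its difference from the astroglia rise was 0.26 (SE 0.31, edgeR adjusted p = 0.707). In the endothelial age fit 22.2% of 6704 genes were called in either direction, and 908 of 5139 without shared barcodes. In mural cells *Glul* was at 68.2 to 106 CPM (log2 fold change -4.30, SE 0.51, edgeR adjusted p = 2.06e-04).

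**Figure D5:**
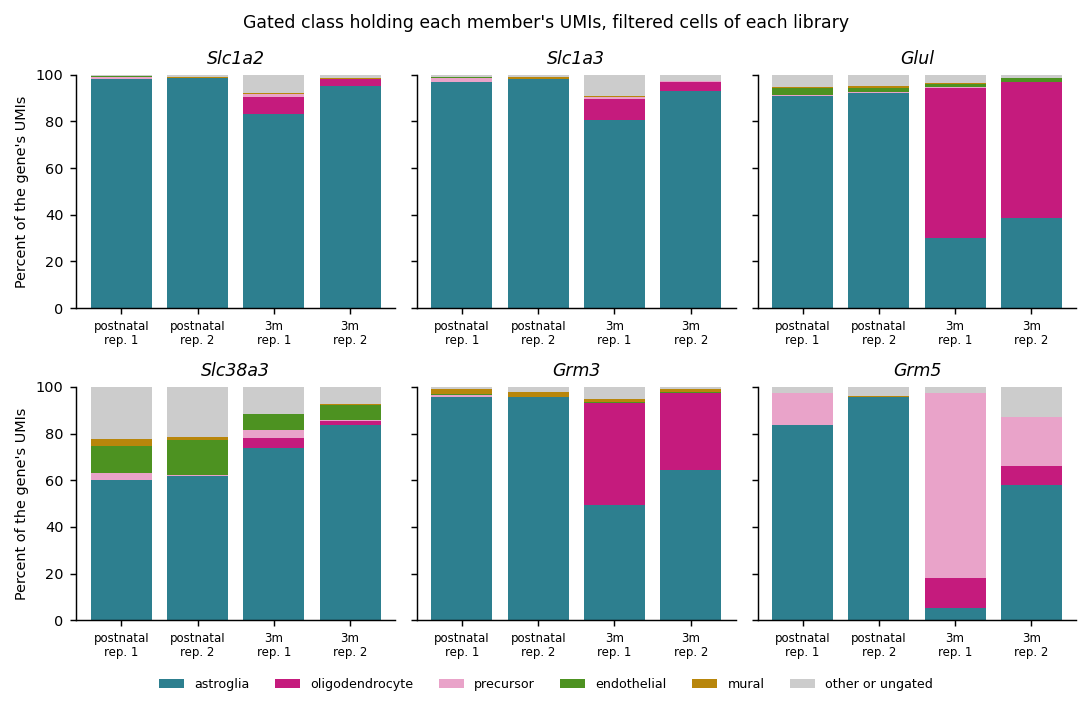
Share of each gene's UMIs held by each class in each library (percent of the UMIs of the gene over all filtered cells, so each bar sums to 100; grey stands for other and ungated cells). Oligodendrocytes hold 64.5% and 58.4% of the *Glul* UMIs of the 3m libraries, and precursors hold 79.3% and 20.97% of the few *Grm5* UMIs there.

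The sums over all filtered cells, in which the classes had different shares, are given beside these. Astroglia were 68.1% and 75.8% of the filtered cells in the postnatal and 27.2% and 39.4% in the 3m libraries, and oligodendrocytes were 1.44% and 0% against 51.9% and 39.8%. Over all filtered cells *Glul* was called higher at 3m (1.80, SE 0.20, edgeR adjusted p = 0.00192) and *Grm5* lower (log2 fold change -3.57, SE 0.25, edgeR adjusted p = 4.20e-04), that is 2 of 6 genes, where 29.1% of 14288 genes were called, 15.7% higher and 13.3% lower. *Slc1a2* (0.88, SE 0.30), *Grm3* (0.89, SE 0.16), *Slc38a3* (-0.13, SE 0.22) and *Slc1a3* (-0.51, SE 0.67) were not. These calls depended on single libraries: without postnatal replicate 1 *Slc1a2* was called higher (1.32) and *Slc1a3* lower (log2 fold change -1.26), without postnatal replicate 2 *Slc1a3* was called higher (1.04), and without 3m replicate 1 *Grm3* was called higher (1.07). Oligodendrocytes held 64.5% and 58.4% of the *Glul* UMIs of the 3m libraries, astroglia 29.8% and 38.5%, and in the postnatal libraries astroglia held 90.6% and 92.3%.

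*Slc38a3* was the gene that endothelial cells shared. It stood at 164 and 242 CPM (197 CPM without shared barcodes, from 8 UMIs) in postnatal and at 156 and 202 CPM in 3m endothelial cells, so the ages overlapped there, whereas astroglia rose. Against astroglia over all libraries the difference was -0.05 (SE 0.50, edgeR adjusted p = 0.948), or -0.66 without shared barcodes (SE 0.34, edgeR adjusted p = 0.161), and its sign depended on the setting. The age difference of endothelial cells was smaller than that of astroglia by 2.17 (interaction -2.17, SE 0.31, edgeR adjusted p = 1.08e-10), where 6.58% of 11522 genes were called lower in that test. This p-value rests on a spread estimated over all genes, not on that of *Slc38a3* alone. Without shared barcodes the interaction was -1.46 (edgeR adjusted p = 0.0145), without postnatal replicate 2 it was -1.22 (edgeR adjusted p = 0.00422), and without postnatal replicate 1 it was -2.86. In postnatal libraries the endothelial level was above that of astroglia (150 and 79.4 CPM) and at 3m below it (280 and 278 CPM). The postnatal endothelial sums rest on 15 and 10 cells with median totals of 41325 and 18281 UMIs, against 6570 and 5493 UMIs at 3m, and the part of depth in the result was not tested. Markers of other classes moved with age in these endothelial sums: mural markers (9 of 10 detected in each, *Acta2* at 0) from 1897 and 1830 to 7797 and 5068 CPM, and oligodendrocyte markers (3 and 3, then 9 and 7 of 10 detected, *Opalin* at 0) from 22.9 and 27.1 to 193.5 and 350.3 CPM. Endothelial markers moved from 6731 and 5920 to 21404 and 26794 CPM, while astroglia markers stayed at 140 to 146 CPM. The part of these in the endothelial results for *Slc38a3* and *Glul* was not tested. In 3m oligodendrocytes *Slc38a3* was nearly absent, at 6.16 and 3.67 CPM (log2 fold change -5.78, SE 0.17, edgeR adjusted p = 1.12e-08), and precursors held 41.1 and 97.0 CPM. Mural cells held 108 and 27.5 CPM in the postnatal and 0 and 20.95 CPM in the 3m libraries, and the 108 CPM were 30 UMIs in 3 of 24 cells. In the test of the age difference of mural cells against that of astroglia 2.04% of 11260 genes were called lower. *Glul* was among them (-2.17, SE 0.54, edgeR adjusted p = 0.0258), on mural sums of 13 to 46 UMIs, but not when classes were taken from clusters (-0.08) or when either 3m library was left out. Without postnatal replicate 2 it was -1.55.

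*Grm3* reached beyond astroglia into oligodendrocytes and mural cells. In 3m oligodendrocytes it stood at 117 and 124 CPM, detected in 19.4% and 20.5% of thinned cells (log2 fold change against astroglia -1.65, SE 0.11, edgeR adjusted p = 7.62e-07). In mural cells it stood at 53.9 and 59.6 CPM in the postnatal and 105 and 96.4 CPM in the 3m libraries (-1.92, SE 0.28, edgeR adjusted p = 6.05e-04). These levels were above those of precursors, 8.81 and 3.34 CPM, and of the endothelial sums, 1.50 to 15.2 CPM. Without shared barcodes the endothelial sum of postnatal replicate 2 held no *Grm3* UMI, which allows up to 73.8 CPM, and so cannot be ordered against mural cells. Since oligodendrocytes were numerous, they held 43.7% and 32.9% of the *Grm3* UMIs at 3m.

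*Grm5* lay in postnatal astroglia and in precursors. Precursors held it at 163 CPM in postnatal replicate 1 and at 308 CPM in 3m replicate 1, and the smaller sums at 58.4 CPM (6 cells) and 274 CPM (7 cells). At 3m the precursors of replicate 1 thus stood far above the 2.67 CPM of its astroglia, and 46.5% of the 43 thinned precursors held a UMI. The fit over both tested libraries gave 2.19 (SE 1.19, edgeR adjusted p = 0.280) and was not called, although it was without the filter on low counts (2.11, SE 0.51, edgeR adjusted p = 4.48e-04). Its parts were unlike: the difference was -0.29 in postnatal replicate 1 and 6.17 in 3m replicate 1, each a value with no test. Endothelial cells held no *Grm5* UMI in any library, which puts the astroglia of postnatal replicate 1 at least 39.4-fold higher (against 3 UMIs per library). In postnatal replicate 2 the bound was 41.2-fold, but 1.96-fold without shared barcodes, where 3 UMIs stand for 73.8 CPM. Mural cells held 7 UMIs in 1 cell of postnatal replicate 2 and 0 elsewhere. Of the 116 *Grm5* UMIs in 3m replicate 1, 79.3% lay in precursors and 5.17% in astroglia, and of the 62 in 3m replicate 2, 20.97% and 58.1%.

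Over the 16 sums of a class in a library with at least 10 cells, the genes most like each member were found among 7255 genes by Pearson correlation of log2(CPM + 1). The sums share libraries and the astroglia markers define 1 class, so these are descriptions. *Slc1a2* was most like *Clu* (r = 0.968), *Scg3* and *Plpp3* (both 0.953), and *Slc1a3* most like *Mt3* (0.964), *Aldoc* (0.949) and *Id4* (0.946). *Clu* and *Aldoc* are among the markers by which astroglia were gated. *Glul* was most like *Pla2g16* (0.901), *Myo6* (0.888) and *Add3* (0.882). *Slc38a3* was most like *Ccdc85a* (0.935), *Bhlhe40* (0.915) and *Jam2* (0.914). *Grm3* was most like *Selenbp1* (0.899), *Fxyd1* (0.887) and *Sdc4* (0.873), and *Grm5* most like *Csmd1* (0.986), *Vcan* (0.976) and *Slc35f1* (0.969). Among the members *Slc1a2* and *Slc1a3* were the most alike (0.915), and *Slc38a3* and *Grm3* the least (-0.254).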

How the data were processed

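UMI counts of single cells from 4 striatal libraries were used. The authors made the deposited raw counts with Cell Ranger on mm10; the notes also name Seurat 3.1.1. Cell numbers given by the study cover more preparations than were analysed here. Cells with more than 500 genes and under 10% mitochondrial counts were kept. A cell joined the class with the highest mean of ln(1 + UMIs per 10000) over its marker list if the lead was at least 0.25 and 3 markers were detected, a rule set after seeing marker scores; erythroid, neuron, microglia, ependymal and fibroblast lists competed. Doublets were not called, and cells with mixed markers stayed ungated. Counts were summed per library and class and tested over all genes with edgeR 4.0.16 (TMM factors, filterByExpr, quasi-likelihood F test, Benjamini-Hochberg adjustment; R 4.3.3), a test checked on simulated data. Age fits had no covariate, and class fits had the library as a block and used libraries with at least 10 cells of both classes; genes under the filter in the class alone are given by level only, a rule added after the fits were seen. The SE is the fold change divided by the square root of F. Thinning drew 2000 UMIs per cell without replacement and left out 63, 37, 30 and 42 shallower astroglia. Leiden clusters (leidenalg 0.10.2, 2000 variable genes, 30 components, 20 neighbours, resolution 0.6) gave 11 clusters. Cells with at least 3 UMIs of 10 cell cycle genes were called cycling (after thinning, where cycling and other cells were set side by side). The named genes were the 6 members, in each pathway role the called genes with the largest changes (at most 3), and for each member the 3 most like genes with a mean of at least 20 CPM. Some genes that this rule names are not reported here. The members and lists were chosen with earlier results of these data known. The study describes independent preparations of pooled animals, while the labels do not tie a library to its animals. The p-values of the age fits thus measure the spread between libraries, shared in part over genes. Class and interaction fits hold the library as a block, so theirs measure how class differences vary between libraries. In the endothelial interaction this spread was estimated over all genes together. The astroglia sums of a pair differed by more than sampling noise (chi-square per degree of freedom 30.2 postnatal, 2.99 at 3m). Total UMIs were 7185335 to 11501049 per library, and intervals and limits from counts (a count of 0 allows 3) cover counting error only. DESeq2 1.42.0, other scalings, filters and cell choices were alternatives.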

Additional observations from a re-analysis of the deposited data

Results flagged for a closer look

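The change between the ages passed the test of a difference between classes for 2 results, each by the interaction term of an edgeR fit added after the class levels were seen. For *Slc38a3* the endothelial change was smaller than the astroglia change (interaction -2.17 on the log2 scale, SE 0.31, edgeR adjusted p = 1.08e-10). This p-value rests on a spread estimated over all genes, not on that of *Slc38a3* alone. The interaction ranged from -2.86 to -1.22 when 1 library was left out, and was -1.46 without shared barcodes (edgeR adjusted p = 0.0145). For *Glul* the mural change was smaller than the astroglia change (interaction -2.17, SE 0.54, edgeR adjusted p = 0.0258), on mural sums of 13 to 46 UMIs. That call was lost without either 3m library, and with classes taken from clusters, where the difference was -0.08. Astroglia markers in mural cells summed to 394.5 CPM in postnatal replicate 2 but to 62.9 to 220 CPM in the other libraries, and their part in the result was not tested. *Slc1a3* and *Slc38a3* were under the count filter in mural cells alone, so no such test is given for them.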

How the results depend on the processing

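A pair of libraries per group, few cells outside astroglia and sums of under 50 UMIs for several values limit these results. With 1 library left out, its group's spread is assumed to be that of the other group. Between the ages the genes called in astroglia numbered 765 to 4075 with 1 library left out, 1331 without cells holding oligodendrocyte marker counts (5394 genes tested) and 1847 after thinning (7386 genes tested). Leaving out 1 library gave 1.52 to 2.78 for *Slc1a2*, 0.17 to 2.02 for *Slc1a3* and 1.32 to 2.20 for *Glul*. It gave 1.13 to 2.10 for *Slc38a3*, 1.24 to 1.75 for *Grm3* and -5.74 to -3.37 for *Grm5*. The calls of *Slc1a2*, *Glul* and *Slc38a3* were lost without either 3m library, and that of *Grm3* without 3m replicate 2. *Grm5* kept its call, and *Slc1a3* was called without postnatal replicate 2. Against postnatal cluster 3 *Slc38a3* (0.90) and *Grm3* (0.69) missed the limit, and against cluster 2 *Grm5* turned to 0.91; the cause was not tested. The other 103 of 114 alternative values of the 6 genes kept direction and call.

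Over all cells *Slc1a3* ranged from -1.26 to 1.04 and *Slc38a3* from -0.39 to 0.15 with 1 library left out, and *Slc38a3* was 0.00440 without shared barcodes. Genes called in precursors numbered 860 with DESeq2 and 697 without the library block. *Slc38a3* in endothelial cells turned to 0.10 with no scaling, 0.23 with clusters and 0.030 with haemoglobin markers left out of the gate, and ranged from -0.59 to 0.41 with 1 library left out. The endothelial age fit called 908 genes without shared barcodes and 986 to 1647 with 1 library left out. The interaction of the endothelial class called 735 genes without shared barcodes and 715 to 1503 with 1 library left out. There *Glul* turned to -0.11 with clusters. The mural interaction called 192 genes with clusters and 129 to 895 with 1 library left out. There *Slc1a2* was 0.044 with clusters and ranged from -3.15 to 1.02 with 1 library left out. The cause was not tested for any of these. The share of astroglia with a UMI differed between the ages by 31.1, 27.2 and -12.1 percentage points for *Slc1a2*, *Glul* and *Grm5* when thinned to 1000 UMIs, and by 4.58, 2.62 and -35.7 without thinning.

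With the replicate number as a block (replicate block) 3228 genes were called in astroglia, and no call of the 6 genes changed there. Deviations of samples with the same number correlated at 0.0456 in astroglia and 0.223 over all cells. Both replicate 1 libraries had 4 runs and both replicate 2 libraries had 2, and the 95 coinciding barcodes lay between the replicate 2 libraries. Whether libraries of the same number were handled together is not stated. Nothing in the labels says that the numbers pair the libraries, so they were not treated as paired.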
